A study of Mus musculus with 12 samples.

Results

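Reduced representation bisulfite sequencing (RRBS), which digests genomic DNA at CCGG sites and reads methylation in the CpG-rich fragments, had been performed on 2 immortalised mouse embryonic fibroblast (iMEF) lines. The experimental line carried R26M2rtTA/+;TetOcre;Sdhcfl/fl and the control line R26M2rtTA/+;TetOcre;Sdhcfl/wt, so that both held the reverse tetracycline transactivator at the Rosa26 locus and a doxycycline-inducible Cre. Doxycycline was to remove both floxed copies of Sdhc, which encodes an anchor subunit of succinate dehydrogenase, in the experimental line and to leave a wild-type copy in the control line. Each line was sampled on day 0, before the drug was added, and after 5, 9, 12, 16 and 20 days of doxycycline, with 1 library for each line and day. The 12 libraries are thus time points of 1 line per genotype, and line and genotype cannot be told apart.

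The report concerns 1174 cytosines selected as low before induction and raised afterwards in the experimental line, of 606488 autosomal cytosines listed in all 12 libraries. A cytosine was selected on a methylation level under 20% at day 0 in both lines, a mean under 10% over the 5 later control libraries and a mean of 30% or more over the 5 later experimental libraries. Of the 606488 cytosines, 219930 (36.3%) met the limits on day 0 and on the control mean, and they are called the low pool. The selected cytosines were 0.534% of the low pool. The difference between the lines after day 0 chose these cytosines, so it is described and not tested. With the lines exchanged, the same limits selected 991 cytosines, which were 0.459% of their own low pool.

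Methylated cytosine in CpG dinucleotides is written by DNA methyltransferases and oxidised by the TET dioxygenases as a step towards its removal. TET enzymes use 2-oxoglutarate and are inhibited by succinate, the substrate of succinate dehydrogenase. CpG islands, the CpG-dense stretches at many promoters, are usually free of methylation in fibroblasts, whereas CpGs in gene bodies and between genes are usually methylated.

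The libraries listed between 932307 cytosines (control day 12) and 1716381 (control day 5). Within the experimental line after induction, day 9 (1417046) and day 20 (1396072) had the fewest. The deposited values are percentages with no read numbers, which leaves the depth at a cytosine unknown and allows no interval for a single value. The share of shared cytosines at exactly 0% or 100% was 66.7% on day 9 and 65.7% on day 20, against 43.5% to 51.5% in the other 3 experimental libraries after induction. It was highest on control day 12, at 83.1%. Control day 16 had 66.7%, against 49.0% to 56.0% on control days 5, 9 and 20. At day 0 the share was 47.4% in the experimental and 67.0% in the control line. Promoter methylation could be read for 5 of 24 cell type marker genes fixed for the label, and 3 of these mark fibroblasts. After day 0 these 3 promoters had experimental and control means of 0.572% and 0.182% in Vim, an intermediate filament gene of mesenchymal cells, 13.0% and 11.9% in Twist1, a mesenchymal transcription factor, and 89.1% and 85.8% in Col1a2, a chain of type I collagen. The 3 differ widely and do not test the cell type.

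Promoter stretches that hold selected cytosines are shown first, because they give the sequence setting of the cytosines that lie nearest to start sites. The 6 protein-coding genes were taken in order of the number of selected cytosines within 250 bases upstream of a RefSeq start, then of the experimental mean, among stretches outside any RefSeq gene span, and were therefore chosen after their values were seen. Sequences are from RefSeq on GRCm38.p6 (mm10), written 5′ to 3′ on the strand of the gene, and capitals mark the CpG that holds a selected cytosine.
Cpxm1, chr2:130397630-130397879, minus strand: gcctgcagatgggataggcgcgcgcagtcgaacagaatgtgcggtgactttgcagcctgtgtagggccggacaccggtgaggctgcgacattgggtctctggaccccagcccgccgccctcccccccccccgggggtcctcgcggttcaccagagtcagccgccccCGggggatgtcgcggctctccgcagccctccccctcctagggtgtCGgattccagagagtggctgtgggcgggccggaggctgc
Rcor2, chr19:7267144-7267393, plus strand: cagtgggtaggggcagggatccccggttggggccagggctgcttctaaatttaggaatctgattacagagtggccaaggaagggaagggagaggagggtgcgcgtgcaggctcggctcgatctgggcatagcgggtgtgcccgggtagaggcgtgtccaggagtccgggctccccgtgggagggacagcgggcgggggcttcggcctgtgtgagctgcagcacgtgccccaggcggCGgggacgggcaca
Aldh1a2, chr9:71215539-71215788, plus strand: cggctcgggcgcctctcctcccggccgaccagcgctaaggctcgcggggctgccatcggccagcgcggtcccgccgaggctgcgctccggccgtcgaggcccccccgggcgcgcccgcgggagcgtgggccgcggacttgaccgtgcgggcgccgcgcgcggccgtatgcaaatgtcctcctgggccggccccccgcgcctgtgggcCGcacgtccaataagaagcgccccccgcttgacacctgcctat
Clec2l, chr6:38662819-38663068, plus strand: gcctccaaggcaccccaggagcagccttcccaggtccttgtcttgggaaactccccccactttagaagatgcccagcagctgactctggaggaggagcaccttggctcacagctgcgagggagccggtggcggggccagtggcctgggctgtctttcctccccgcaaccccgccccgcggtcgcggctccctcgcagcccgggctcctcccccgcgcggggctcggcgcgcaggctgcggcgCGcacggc
Il17rc, chr6:113471205-113471454, plus strand: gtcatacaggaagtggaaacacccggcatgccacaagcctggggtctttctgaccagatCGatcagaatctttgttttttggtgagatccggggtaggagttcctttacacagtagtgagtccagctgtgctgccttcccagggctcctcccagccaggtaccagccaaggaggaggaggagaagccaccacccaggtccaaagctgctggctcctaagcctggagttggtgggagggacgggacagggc
Glp1r, chr17:30901617-30901866, plus strand: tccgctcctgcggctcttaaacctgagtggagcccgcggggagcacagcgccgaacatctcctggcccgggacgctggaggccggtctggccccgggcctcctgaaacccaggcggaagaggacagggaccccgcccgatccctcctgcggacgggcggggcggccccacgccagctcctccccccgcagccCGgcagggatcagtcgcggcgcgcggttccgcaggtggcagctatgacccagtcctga

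Cpxm1, which encodes a secreted carboxypeptidase-like protein, was the only one of these 6 stretches with more than 1 selected cytosine. Its cytosine at chr2:130397667, 38 bases upstream of the start, was at 0% on days 0 and 5, 100% on day 9, 5.26% on day 12, 40% on day 16 and 100% on day 20. The other, at chr2:130397713, was at 44.4% on day 5 and 100% on day 20, and at 0% to 7.41% in the other 4 experimental libraries. The days on which the selected cytosines of this promoter were high thus coincided on day 20 and differed on days 5, 9 and 16. In the control line chr2:130397667 was at 33.3% on day 5 and chr2:130397713 at 8.33% on day 16, with 0% otherwise. The 6 other listed cytosines of the stretch averaged 4.67% at experimental day 0 and 19.4% afterwards, against 34.4% and 13.8% in the control line. In Aldh1a2, whose product makes retinoic acid, 1 of 44 listed cytosines of the stretch was selected, and the other 43 averaged 18.2% in the experimental and 19.1% in the control line after day 0. In Clec2l, a C-type lectin gene, 17 of the 18 other listed cytosines had experimental means under 10%. The 8 other listed cytosines upstream of Rcor2, a transcriptional corepressor, averaged 27.0% in the experimental line after day 0 and 25.6% at its day 0, against 9.20% and 7.24% in the control line. At Glp1r, which encodes a hormone receptor of pancreatic beta cells, the selected cytosine was at 13.2% at experimental day 0 and 7.69%, 45.0%, 55.2%, 32.4% and 38.2% on days 5 to 20, against 0% to 15.2% in the control line. At Il17rc, a cytokine receptor subunit gene, the control line reached 41.3% on day 16 and overlapped with experimental values of 5.88% to 64.0%. Selected cytosines therefore lay both in stretches that were low elsewhere and in stretches where neighbours already had intermediate levels in at least 1 line before induction.

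The motifs searched on both strands of the 250 upstream bases were CCGG, the site of the RRBS enzyme, CACGTG, GCCNNNGGC and CCGCCC. The enzyme site was found in all 6 stretches, as in 47.8% of the 31396 RefSeq promoters. CACGTG occurred in 1 of 6 (Rcor2), against 6.02% of promoters, GCCNNNGGC in 5 of 6 against 13.9%, and CCGCCC in 4 of 6 against 33.0%. Matches of CCGG can overlap those of GCCNNNGGC, and the matches are letters in these windows, not binding sites. RRBS reads fragments cut at CCGG, whereas the 31396 promoters were counted with or without listed cytosines and at any CpG density. Nothing is therefore read from the motif counts in these 6 stretches. Of the 103 selected cytosines inside a RefSeq window of 250 bases before to 50 after a start, 30 (29.1%) lay in a CCGG, against 19.4% of 50630 low-pool cytosines and 21.4% of all 60266 listed cytosines in such windows.

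The selected cytosines had a mean level of 7.62% in the experimental line at day 0. After induction their means were 32.5% on day 5, 50.3% on day 9, 31.0% on day 12, 28.0% on day 16 and 48.9% on day 20. In the control line the means were 1.64% at day 0 and 6.56%, 5.24%, 0.692%, 2.89% and 6.45% on days 5 to 20. At day 0 the experimental value was the higher at 675 selected cytosines, the lower at 90 and equal at 409, within the limits of the selection. The low pool as a whole lay between 1.32% and 2.18% in every experimental library and between 0.243% and 1.39% in every control library. Experimental levels were thus highest on days 9 and 20, the experimental libraries with the fewest listed cytosines, and did not rise in order of day.

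**Figure D1:**
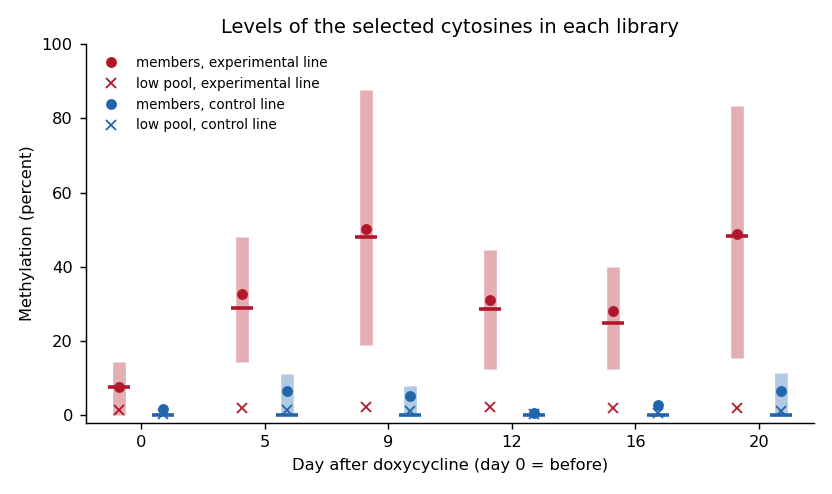
Methylation (percent) of the 1174 selected cytosines in each of the 12 libraries by day. Filled circles are means, horizontal marks medians, bars the span from the lower to the upper quartile, and crosses the mean of the low pool. The experimental means sit at 28.0% to 50.3% after day 0 with the widest bars on days 9 and 20, and the control medians are 0% throughout.

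The course over days differed from cytosine to cytosine. The highest experimental day was day 9 for 428 cytosines and day 20 for 405, against 110 for day 5, 97 for day 12 and 67 for day 16, with 67 tied. A level of 80% or more on day 9 or day 20 was seen at 608 cytosines (51.8%) but on both days at only 45. Of those at 80% or more on day 9, 175 were under 20% on day 20, and 151 were in the reverse position. The mean of the remaining days 5, 12 and 16 was 30% or more at 575 cytosines (49.0%). In the set selected with the lines exchanged, the highest day was day 12 for 537 of 991 cytosines, the day of the control library with the fewest cytosines. The number of listed cytosines moves with these days, and its part in the result was not tested.

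At 142 selected cytosines (12.1%) the level was 20% or more on each of days 5 to 20. A level of 20% or more was found on 4 days at 390 cytosines, on 3 days at 457 and on 2 days at 184. The lowest of the 5 experimental values lay above the highest of the 6 control values at 227 selected cytosines (19.3%), beside 1.10% of all 606488 cytosines. The selection used this contrast, so nothing is read from that count. A group of 523 selected cytosines (44.5%) had experimental means from 30% to under 35%, and 93 had means of 50% or more. Just inside the limit, cytosines near Zfp536, Samd10 and Gm34333 had means of 30%, each with 3 days at 0%, and just outside it Epop, Fam131a and Gm38630 had means of 29.95% to 29.97%.

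The selection fixed the mean of each line over days 5 to 20 and left the trend over days free, so the difference in slope between the lines was tested with limma on M-values (the log2 ratio of methylated to unmethylated fraction) over all 497697 cytosines that varied among the 10 libraries after day 0. None of the 497697 cytosines, and thus none of the 1174 selected ones, passed an adjusted p-value threshold of 0.05 (0% called, smallest adjusted p-value from limma 0.999). At an unadjusted p-value under 0.05 from limma, 113 selected cytosines (9.63%) were found, beside 3.44% of all cytosines tested and, in a fit of those under 20% at day 0 in both lines, 4.28% of 138134. Of these, 65 had a steeper rise in the experimental line, a call made at 1.54% of all cytosines, and 48 in the control line, against 1.90%. The count of 113 lay between 50 and 318 over the alternative fits, and the balance depended on single libraries. The numbers steeper in the experimental and the control line were 151 and 167 without experimental day 5, 19 and 31 without experimental day 20, 28 and 38 without control day 5, and 68 and 17 without control day 20. The selection used the same libraries and favours cytosines that spread widely between days, so nothing is read from these counts. Over the alternative fits the smallest adjusted p-value of any cytosine from limma was 0.332. In simulated data the fit called only 58 of 200 sites with a planted slope difference, so the absence of calls does not show equal slopes.

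The label of a gain after induction was compared with unselected cytosines beside the selected ones. For 113 selected cytosines, 113 unselected cytosines 1 base away on the opposite strand were listed, most often the partner in the same CpG. In the experimental line these adjacent cytosines had a mean of 25.1% at day 0, before doxycycline, and of 23.2%, 20.2%, 23.2%, 25.1% and 27.3% on days 5 to 20. In the control line they had a mean of 11.9% at day 0 and of 10.1% to 13.5% afterwards. The experimental value exceeded the control value at 78 of the 113 at day 0, and the mean over the later days did so at 91. Adjacent cytosines were thus higher in the experimental line already at day 0, and the step seen at the selected cytosines between day 0 and day 5 was not seen at them. Leaving out adjacent cytosines that were themselves selected removes some that were low at day 0 and high afterwards, so that the comparison is a description.

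The 5463 listed cytosines within 100 bp of a selected one that were neither selected nor adjacent averaged 19.4% at experimental day 0 and 20.2% to 24.0% on the later days, against 14.4% and 13.7% to 14.4% in the control line. Their experimental means were thus slightly higher on each later day than at day 0, without the step of the selected cytosines. Leaving out the selected cytosines removes, here too, some that were low at day 0 and high afterwards. Whether the surrounding stretches gained methylation was thus not tested. The selected cytosines are described here as selected to be low at day 0 and high afterwards.

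**Figure D2:**
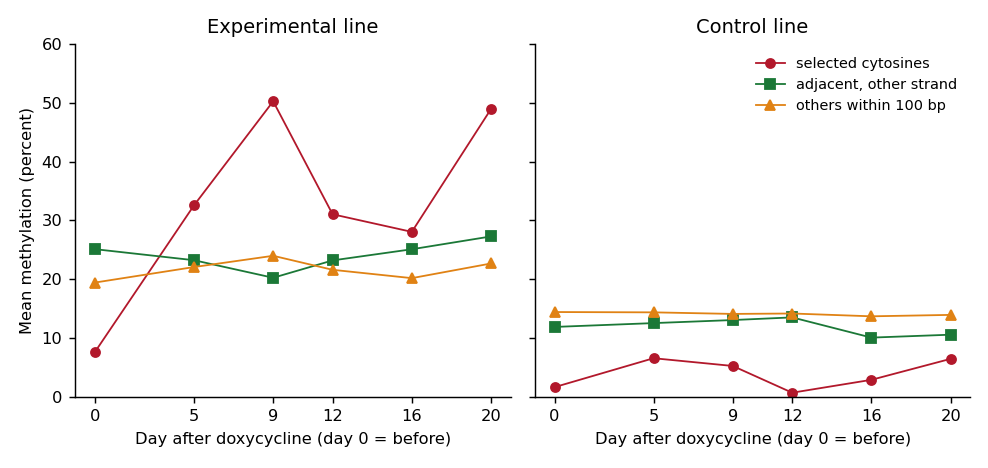
Mean methylation (percent) by day in the experimental line (left) and the control line (right), for the 1174 selected cytosines, for 113 unselected cytosines 1 base away on the other strand and for 5463 other unselected ones within 100 bp. In the experimental line the selected cytosines step from 7.62% to 32.5% between days 0 and 5, while the adjacent ones are at 25.1% and 23.2%.

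The same limits were also applied without both libraries of 1 day, and the cytosines chosen in this way were read in the day left out. Between 1385 and 1701 cytosines were chosen, with experimental means of 38.2% to 39.1% over the 4 days used. In the day left out, their experimental means were 21.8% (day 5), 23.6% (day 9), 19.6% (day 12), 19.1% (day 16) and 23.5% (day 20). Their control means in the days left out were 10.1% to 11.8%, against 3.64% to 4.16% over the days used. On a day that took no part in the choice, the experimental level was thus lower than on the days used and the control level higher, with the experimental mean above the control mean on all 5 days. The experimental value exceeded the control value at 59.8%, 44.1%, 59.4%, 62.1% and 45.2% of the chosen cytosines on left-out days 5 to 20. The remaining cytosines had an equal or a higher control value, and these cases were not counted apart. The lower shares on days 9 and 20 thus do not show that the control value was mostly the higher one. With the lines exchanged the order turned, with control means of 18.9% to 26.5% and experimental means of 9.39% to 10.6% in the day left out. These values come from the same lines as the selection and carry no test.

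**Figure D3:**
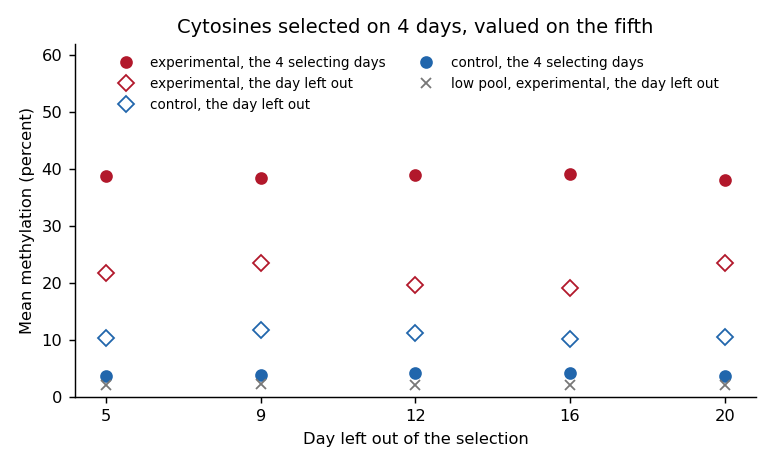
Mean methylation (percent) of cytosines selected on 4 days, by the day left out. Filled circles give the days used for selection and open diamonds the day left out, in the experimental (red) and control (blue) lines, and crosses the low pool. The open diamonds lie at 19.1% to 23.6% in the experimental line and at 10.1% to 11.8% in the control line.

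Position was known for 1142 selected cytosines on the chromosomes for which start sites were used here. Of these, 371 (32.5%) lay in a promoter, from 1500 bp upstream to 500 bp downstream of a start, 532 (46.6%) in a gene body outside promoters and 239 (20.9%) outside genes. The low pool had 65.3% in promoters, 27.9% in gene bodies and 6.78% outside genes, and all listed cytosines had 30.6%, 48.1% and 21.3%. The selected share of the low pool was 0.266% in promoters, 0.893% in gene bodies and 1.65% outside genes. Selected cytosines were thus placed more like the listed cytosines in general than like the low pool. The set selected with the lines exchanged had 36.3% in promoters.

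Selected cytosines had fewer listed cytosines around them than the low pool did, but not fewer than listed cytosines in general. A median of 7 other listed cytosines lay within 250 bp of a selected one, against 14 in the low pool and 5 among all. The share with 2 or fewer was 21.6% of selected cytosines, 4.22% of the low pool and 27.3% of all. The selected share was 2.72% of low-pool cytosines with 0 to 2 such neighbours and fell by class to 1.28%, 0.612%, 0.342% and 0.172% at 21 or more. With the lines exchanged the shares were 2.06% and 0.192% at the ends of the same range. Over the autosomes the share lay between 0.374% (chromosome 17) and 0.793% (chromosome 7).

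**Figure D4:**
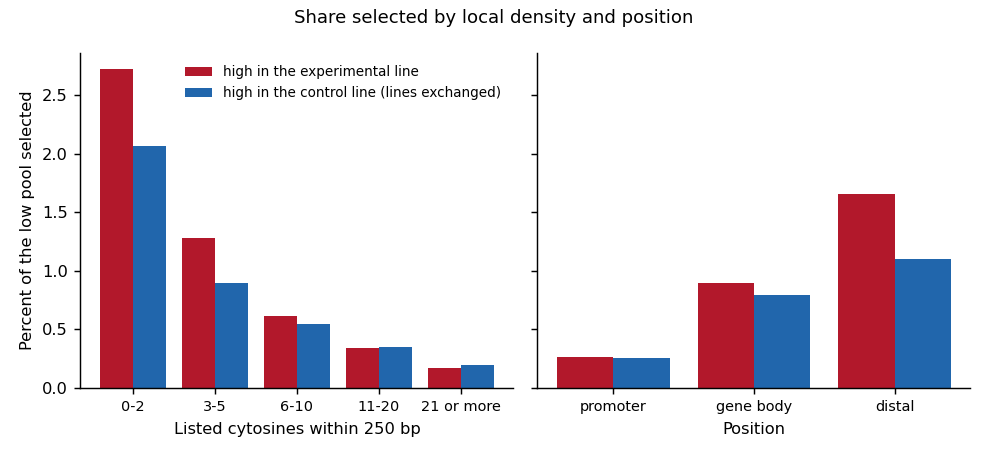
Percent of the low pool selected, by the number of other listed cytosines within 250 bp (left) and by position (right). Red bars are the selected cytosines and blue bars those chosen with the lines exchanged, each as a share of its own low pool. Both directions fall from over 2% at 0 to 2 neighbours to under 0.2% at 21 or more.

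Most selected cytosines stood alone. Joined across gaps of up to 200 bp they formed 1052 regions, of which 952 held 1 selected cytosine, 83 held a pair and 17 held 3 or more. The last number was 29 when experimental day 12 was left out of the selection and 32 without experimental day 16. The largest held 5, against 8 with the lines exchanged. Cytosines of 1 region can be read from the same fragments and are not independent, as seen in Col8a2 below. Exons were not annotated on the build of these files, so that positions within genes are given as gene body.

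The region with 5 selected cytosines lay in the body of Ptprb, a receptor-type tyrosine phosphatase of endothelial cells, at chr10:116301443-116301483. Its mean was 13.1% at experimental day 0 and 30%, 41.0%, 4.44%, 45.3% and 86.7% on days 5, 9, 12, 16 and 20. The 6 control libraries were between 0% and 5.60%. Day 12 lay within the control range and the other days above it. The 5 other listed cytosines in the same stretch averaged 36.6% in the experimental and 5.02% in the control line after day 0.

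Tbx1, a T-box transcription factor of the developing pharyngeal arches and heart outflow tract, had 6 selected cytosines in its body, 4 of them at chr16:18582370-18582592. The mean of the 4 was 10.3% at experimental day 0 and 85.9%, 41.7%, 6.67%, 47.6% and 85.7% on days 5 to 20. Control libraries ranged from 0% to 12.2%, which takes in experimental days 0 and 12. The 17 other listed cytosines of the stretch averaged 43.0% and 23.7% in the experimental and control lines.

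Col8a2, which encodes a chain of type VIII collagen, had 4 selected cytosines within 22 bp at chr4:126296972-126296993. Their mean was 0% at experimental day 0, 66.7% on day 5, 0% on day 9, 22.2% on day 12, 50% on day 16 and 81.3% on day 20, and 0% to 9.68% in the control libraries. Experimental day 9 was thus at the control level between days with high values. In the same stretch 3 other listed cytosines averaged 25.3% in the experimental and 34.3% in the control line.

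Of the 4 promoters with 3 selected cytosines, Car4, a membrane-anchored carbonic anhydrase gene, was the highest. Its cytosines at chr11:84957767-84957819, 13 to 65 bases downstream of the start, had a mean of 0% at experimental day 0 and 75%, 50%, 41.3%, 41.7% and 50% on days 5 to 20. Control means ranged from 0% to 13.0% and lay below the later experimental means, a contrast that the selection used. This holds for the means only, and the cytosine with the fewest raised days was at 20% or more on 3 of the later days. All 13 listed cytosines of this promoter, the selected ones included, averaged 20.6% at experimental day 0 and 31.4% afterwards, against 11.4% and 10.3% in the control line.

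Eps8l2, an EPS8-like regulator of actin, had 3 at chr7:141339271-141339392 with means of 9.89% at experimental day 0 and 45.6%, 75%, 31.3%, 34.7% and 58.3% on days 5 to 20. Control means of 0% to 17.9% lay below all 5 later experimental means. The cytosine with the fewest raised days was at 20% or more on 4 of these 5 days. The 11 listed cytosines of the promoter averaged 33.8% at experimental day 0 and 49.9% afterwards.

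Sim1 and Foxd1 encode transcription factors, the first of the hypothalamus and the other a forkhead factor of the kidney stroma. The 3 cytosines of Sim1, 706 to 725 bases upstream of the start, averaged 55.6%, 90.2%, 16.7%, 18.5% and 0% on days 5 to 20 in the experimental line, and 0% to 4.88% in the control line. Foxd1 had 25.6%, 87.5%, 22.5%, 21.7% and 10.7% on the same days, against 0% to 7.96%. In both promoters the level peaked on day 9 and was lowest on day 20.

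Hoxa3, a homeobox gene that patterns the pharyngeal region, had 3 selected cytosines in its body at chr6:52211866-52211893. They averaged 3.70% at experimental day 0 and 53.8%, 87.5%, 33.3%, 23.1% and 0% on days 5 to 20, with 0% to 1.28% in the control libraries. Zfp503, a zinc finger gene, showed the opposite order at its 3 cytosines at chr14:21985047-21985066, with 0% on day 5, 15.8% on day 9, 12.5% on day 12, 57.1% on day 16 and 100% on day 20. Its control libraries were at 0% except day 12, at 10.1%.

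The other regions shown among those with the most selected cytosines had experimental means of 33.6% to 55.6% and control means of 0% to 5.52%. They lay in or near Csmd1, Gm36793, 1700020G03Rik, 3110053B16Rik, Gm40242, Bahcc1, Pde3a, Gm2399, Gm36606 and Kcnk2. Kcnk2, which encodes a tandem-pore potassium channel, had 42.9%, 0%, 57.1%, 50% and 100% on days 5 to 20. Gm2399 was the region of these 10 in which each selected cytosine was at 20% or more on all 5 days.

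**Figure D5:**
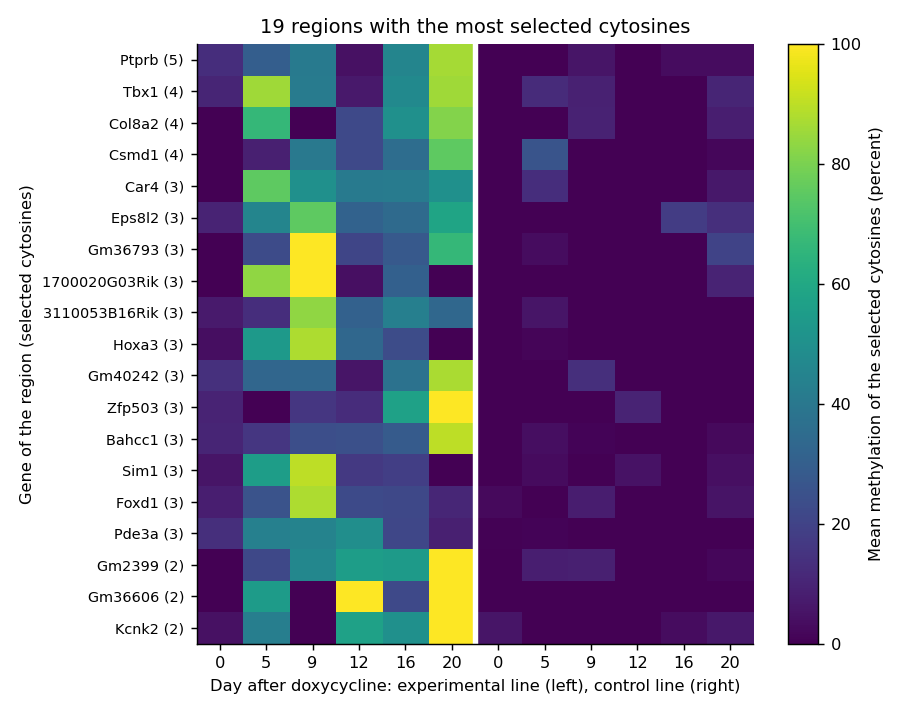
Mean methylation (percent, colour scale) of the selected cytosines in 19 of the regions that hold the most, for the experimental line (left columns) and control line (right columns) by day, with the number of selected cytosines in brackets. Bright cells are found mainly on days 9 and 20, and no day is high in every region.

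Among single cytosines at 0% in both day 0 libraries and at 20% or more on each later day, a cytosine in the body of Aox2, an aldehyde oxidase gene, had the highest mean. At chr1:58300203 it was at 94.1%, 100%, 33.3%, 100% and 100% on days 5 to 20, with 0% in all 6 control libraries and no other listed cytosine within 250 bp. The next were cytosines at Gm41854 (72.3%), Gm41231 (71.1%), Ddx20 (65.0%), an RNA helicase gene, and Ccdc71 (64.5%), with control means of 0.385% to 8.13% and at most 3 other listed cytosines within 250 bp. The highest mean of all selected cytosines, 89.3%, was found 7777 bases upstream of Gm41402, at a cytosine with 14.3% at experimental day 0.

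Selected cytosines lay in the promoter or body of 735 genes, 5.69% of the 12919 genes with a low-pool cytosine there. Among these genes, 130 had 2 or more and 26 had 3 or more. Gene lists were then read by their share of low-pool cytosines selected, beside the 0.534% of the whole low pool and without adjustment for local density or position. The lists hold promoter and gene-body cytosines only, selected at 0.266% and 0.893%. The whole low pool also holds cytosines outside genes, selected at 1.65%, so that its share is not a like measure. Of 29 Hox genes, 6 had a selected cytosine, in all 9 of 311 low-pool cytosines (2.89%). These were Hoxa3, Hoxa4, Hoxb7, Hoxc11, Hoxd1 and Hoxd3, and all 9 lay in gene bodies, where 0.893% of the low pool was selected. The 3 in Hoxa3 lay within 28 bp and had the same experimental values on days 5, 9 and 20.

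Of 156 genes of other developmental transcription factor families, 25 had a selected cytosine, in all 43 of 3255 (1.32%). Besides Tbx1 and Foxd1, those with 2 or more were Pax7, Tfap2c, Zic4, Gata4, Foxb1, Nkx3-2 and Sox14. Pax7, a factor of muscle satellite cells, had 4 in its body, with means of 10.7% at experimental day 0, 24.0%, 55.4%, 18.6%, 34.4% and 65.5% on days 5 to 20, and 0% to 14.5% in the control line. Gata4, a zinc finger factor of the heart and endoderm, had 20.7%, 47.5%, 36.5%, 65.2% and 60.4% on days 5 to 20 over its 2 cytosines, against 0% to 2.17% in the control libraries. The Gata4 values did not overlap between the lines after day 0, whereas its day 0 level of 13.1% also lay above the control range.

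Of 42 Wnt pathway genes, 8 had a selected cytosine, in all 13 of 935 (1.39%). The ligand genes were Wnt1, Wnt7b and Wnt10b, the receptor genes Fzd1, Fzd9 and Ror2, and the remaining genes Lef1, a nuclear effector, and Rspo1, a secreted agonist. Wnt10b had 2 selected cytosines 88 and 134 bases upstream of its start, which averaged 15.4% at experimental day 0 and 20.9%, 28.9%, 15.4%, 43.7% and 60.9% on days 5 to 20, with 0% to 13.2% in the control line. Fzd9 averaged 12.4% at experimental day 0 and 9.76%, 15.6%, 18.5%, 58.3% and 84.2% afterwards, against 0% to 9.50%. In Fzd9 the later days were thus the high ones, and in Wnt7b the first 3 days (58.7%, 46.8% and 48.4%) exceeded day 16 (13.3%) and day 20 (35.7%).

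Collagens and matrix genes had 11 of 794 low-pool cytosines selected (1.39%), in 7 of 63 genes, 5 of them in Col8a2. Ion channel genes had 20 of 1462 (1.37%) in 17 of 116 genes, among them 3 in Kcnc1, a voltage-gated potassium channel. Genes of G protein and neuropeptide signalling had 6 of 374 (1.60%) in 5 of 37 genes, with 2 in Gabbr2, a receptor subunit for the transmitter GABA. Protocadherins had 4 of 102 (3.92%) in 3 of 7 genes, namely Pcdh10, Pcdh20 and Pcdh8. Zinc finger genes, at 17 of 3477 (0.489%) in 9 of 265 genes, were near the share of the whole pool.

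Chromaffin genes were read as the genes of the adrenal cells from which tumours of succinate dehydrogenase loss arise. Of 7 such genes, 2 had a selected cytosine, in all 3 of 40 low-pool cytosines. In the whole low pool 0.534% of cytosines were selected, and 5.69% of genes with a low-pool cytosine had a selected one. The list is small and 2 of its 3 selected cytosines share 1 promoter, so nothing is read from its counts. Slc18a2, the vesicular monoamine transporter, had 2 in its promoter, with means of 8.27% at experimental day 0, 30.2%, 25%, 22.6%, 25.3% and 100% on days 5 to 20, and 0% to 8.33% in the control line. The later experimental means of the pair all lay above the range of the control means, but 1 of the 2 cytosines, at chr19:59260945, was at 0% on day 9 and 5% on day 16, below its control value of 16.7% on day 5. Chga, which encodes chromogranin A, had 1 selected cytosine, 40 bases downstream of its start, with a mean of 34.0%. It was at 0% at experimental day 0 and at 21.4%, 0%, 5%, 43.8% and 100% on days 5 to 20. Its control value was 36% on day 20, above the experimental values of days 5, 9 and 12, and 0% in the other control libraries.

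No selected cytosine was found among the 400 low-pool cytosines of 23 succinate dehydrogenase and tricarboxylic acid cycle genes or the 416 of 17 tumour suppressor genes. At the 0.534% of the whole pool very few would be selected in lists of this size, so an absence from them is no result about these genes. Among 11 genes of DNA methylation and its removal, 1 of 247 low-pool cytosines was selected, in the body of Mbd4, a DNA glycosylase gene.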

How the data were processed

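RRBS had been performed on 12 libraries, 1 for each of 2 iMEF lines before and at 5 times after the start of doxycycline. The authors aligned reads with Bismark to mm10 per the labels, versions not given in the sources used here, and deposited for each listed cytosine the percent methylated, without read counts. The depth and any coverage minimum behind a value are therefore unknown, and shallow sites give values near 0% and 100% more often.

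Autosomal cytosines listed in all 12 libraries were kept. The selected cytosines and the gene lists were chosen with earlier results of these data known. Starts and gene spans were from RefSeq on GRCm38.p6, the same assembly as mm10 (70377 of 70377 listed cytosines in promoter windows lay at a CG), and 1 autosome had no start site used here. Start sites were held for 16457 of 20665 autosomal protein-coding genes.

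Slopes were fitted with limma 3.58.1 in R 4.3.3 on log2((beta + 0.01)/(1 - beta + 0.01)), with line, centred day and their product, and Benjamini-Hochberg adjustment. In simulated data of 20000 sites, 200 were given a slope difference of 3 standard deviations of the site per 5 days, with normal noise. The fit called 58 of these 200 and 1 of the unchanged sites. Other tables were made with Python 3.11.15, numpy 2.4.6 and pandas 2.3.3. Libraries of 1 line are separate days and not independent cultures, so that p-values measure the spread between these libraries only. The genes named were the 20 regions with the most selected cytosines, promoters with 3 or more, the 5 highest sustained cytosines at 0% on both day 0 libraries, those next to the limit and list genes with 2 or more. Some of these results are not reported here. Alternatives changed each limit, the gap, the promoter window and the slope scale, or left out a library.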

Additional observations from a re-analysis of the deposited data

Results flagged for a closer look

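Dixon's test was applied to the 5 days after doxycycline of each line for the library means and for the named regions and single cytosines, in 56 groups of 5 values, of which 14 were past the 95% critical value of 0.71. Chance gives about 1 in 20 groups, and values tied at 0% with 1 raised day pass easily. The days are time points, not replicates of 1 condition.

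A day far from the other 4 was found in the experimental line for the Car4 region (75% on day 5), the Foxd1 region (87.5% on day 9), the Bahcc1 region (90.0% on day 20) and the Aox2 cytosine (33.3% on day 12).

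In the control line 1 day stood apart from the other 4 in the regions of Csmd1 (25.8% on day 5), 3110053B16Rik (5.56% on day 5), Hoxa3 (1.28% on day 5), Gm40242 (13.3% on day 9), Zfp503 (10.1% on day 12), Gm36793 (20.3% on day 20) and 1700020G03Rik (9.91% on day 20). The same held for the cytosines at Ccdc71 (1.92% on day 9), Gm41854 (23.2% on day 20) and Gm41231 (23.8% on day 20).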

How the results depend on the processing

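An experimental mean of 40% or more left 356 cytosines, 4 regions with 3 or more, 28.0% in promoters and 24.4% sustained at 20% or more on all 5 days, and a mean of 20% or more gave 4407, 172, 37.7% and 3.52%. A control mean under 5% left 644 cytosines and 8 regions. Day 0 levels under 10% left 643 cytosines, 8 regions, 37.2% in promoters and 8.24% sustained. Medians in place of means gave 29.8% in promoters and 15.3% sustained, and a promoter of 500 bp on either side held 27.6%. With 10% or 30% as the level counted as sustained, the share was 29.0% or 3.07%. Without requiring control day 12, 1845 cytosines were selected. In choices made after seeing the data, dropping the limit on experimental day 0 gave 3403 cytosines, 133 regions, 27.4% in promoters and 25.7% sustained, and a mean over experimental days 5, 12 and 16 gave 9.58% sustained. Leaving out libraries gave 1150 to 1701 cytosines, 18 to 32 regions, 31.5% to 34.6% in promoters and 8.79% to 13.2% sustained. The region count rose from 17 to 29 without experimental day 12 and to 32 without experimental day 16, and the cause of these changes was not tested. No cytosine passed the slope test under any scale, contrast or left-out library that was run, nor with the day as a replicate block (0 calls). Depth per cytosine is unknown, which limits every value at 0% or 100%.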

Other observations

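Among the 142 sustained selected cytosines, at 20% or more on each of days 5 to 20, those in Cldn3 and Tacr1 were chosen as examples after their values were seen. In the body of Cldn3, a tight junction gene, a cytosine at chr5:134987044 was at 5.26% at experimental day 0 and 32.1%, 42.9%, 66.7%, 66.7% and 100% on days 5 to 20, with 0% in the 6 control libraries. In the promoter of Tacr1, the receptor of substance P, a cytosine 786 bases upstream of the start was at 38.8%, 69.0%, 64.3%, 33.3% and 72.0% on those days, against at most 7.41% in the control line. Of the 142 sustained cytosines, 26 were at 0% in both day 0 libraries. No overlap between the 5 later experimental values and the 6 control values was found at 119, beside 1.10% of all 606488 cytosines. The limits that chose the sustained cytosines used this contrast, so nothing is read from that count.

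Sustained cytosines averaged 10.0% at experimental day 0 and 42.2%, 53.9%, 40.9%, 38.6% and 51.8% on days 5 to 20. In annotated positions, 35 of 138 (25.4%) lay in promoters, 66 in gene bodies and 37 outside genes.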
